A study of Mus musculus with 15 samples.

Results

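Chemokines are small secreted or membrane-anchored proteins that guide migrating cells, and chemokine receptors are the 7-transmembrane proteins that read them. They were examined in bulk RNA-seq of mouse cerebellar cultures with and without interleukin-12 (IL-12), a cytokine of type 1 immunity. Members were all protein-coding genes whose symbol begins with Ccl, Cxcl, Xcl, Cx3cl, Ccr, Cxcr, Xcr, Cx3cr or Ackr followed by a digit, which gave 65 genes of the 35142 in the data: 42 ligands and 23 receptors. Of these, 25 genes (38.5%) reached at least 1 CPM (counts scaled to the size of the library) in at least 2 cultures and were tested, 18 ligands and 7 receptors. The other 40 genes, 24 ligands and 16 receptors, lay under that level.

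All 15 cultures were dissociated cerebellar cells of wild-type C57BL/6 pups, taken between postnatal day 0 and 4 and grown for 14 days in Neurobasal Plus medium with B27 Plus. In 5 cultures no IL-12 was added, and 5 each received recombinant murine IL-12p70 at 30 ng/ml or 100 ng/ml for 18 h. The labels call the cells neurons and number the cultures of each group without saying whether they came from separate animals or preparations, so the p-values measure the spread between these cultures. The comparison asks how IL-12 changes transcription in such cultures.

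Chemokine families are named after the spacing of their first cysteines (CC, CXC, XC and CX3C), and the receptors after the family they bind. Classical receptors signal through inhibitory G proteins towards migration, whereas atypical receptors (Ackr) bind chemokines without that coupling and scavenge or present them. In the brain, CX3CL1 on neurons and CX3CR1 on microglia form a well-known pair, and CXCL12 with CXCR4 guides granule cell precursors in the developing cerebellum.

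Between 25746096 and 38435850 estimated reads were assigned per culture. The RNA was that of mixed cultures: without IL-12, 13 microglia markers had a median level of 506 TPM (a level per transcript length, scaled to the library), against 181 TPM for 11 astrocyte, 139 TPM for 11 oligodendrocyte-lineage and 5.53 TPM for 13 cerebellar neuron markers. Of the 13 neuron markers 12 were tested, *Calb1* among them. The Purkinje cell marker *Pcp2* was not, with at most 3 reads in a culture. Replicate 2 at 100 ng/ml lay farthest from its group, and leaving it out raised the number of all genes changed at 100 ng/ml from 1500 to 2932 and left 10 of the 11 members called below; without it *Ccl7* was not called (log2 fold change 0.53, FDR = 0.0660).

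The promoters of 5 members are shown here because the genes differ in response: *Cxcl1*, *Cxcl5* and *Ccl2* rose the most among the ligands, *Cxcl10* holds a motif and was not called, and *Ccr1* fell the most of the called members. Each run holds the bases of GRCm39 before the start of the gene, written 5′ to 3′ on the strand of the gene, within 250 bases of the start of the Ensembl canonical transcript (GENCODE release M39). Capitals mark matches to GGANTTTCC, an NF-kB motif, or TTCNNNGAA, a STAT motif, each searched on both strands (the second is its own reverse complement). The *Cxcl5* run is shorter because another transcript of the gene starts inside the window.
Cxcl1 (chr5:91038844-91039093, plus strand): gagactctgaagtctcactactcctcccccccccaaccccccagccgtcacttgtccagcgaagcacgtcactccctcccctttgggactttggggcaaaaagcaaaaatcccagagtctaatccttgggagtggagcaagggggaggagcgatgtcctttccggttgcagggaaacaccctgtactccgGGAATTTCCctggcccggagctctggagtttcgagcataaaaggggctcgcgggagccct
Cxcl5 (chr5:90906987-90907185, plus strand): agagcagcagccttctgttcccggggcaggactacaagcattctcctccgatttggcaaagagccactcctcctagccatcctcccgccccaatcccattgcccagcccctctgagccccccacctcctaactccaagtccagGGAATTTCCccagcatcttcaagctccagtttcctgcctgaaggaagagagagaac
Ccl2 (chr11:81926147-81926396, plus strand): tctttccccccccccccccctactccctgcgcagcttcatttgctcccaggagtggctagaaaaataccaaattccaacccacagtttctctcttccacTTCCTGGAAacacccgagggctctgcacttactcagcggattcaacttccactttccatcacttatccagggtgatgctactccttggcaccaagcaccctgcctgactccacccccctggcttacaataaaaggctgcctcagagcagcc
Cxcl10 (chr5:92496749-92496998, minus strand): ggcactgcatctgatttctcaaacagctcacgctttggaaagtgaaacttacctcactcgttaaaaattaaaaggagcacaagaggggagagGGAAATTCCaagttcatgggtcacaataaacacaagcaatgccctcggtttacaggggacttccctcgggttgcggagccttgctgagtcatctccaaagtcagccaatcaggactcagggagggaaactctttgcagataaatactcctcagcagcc
Ccr1 (chr9:123768735-123768984, minus strand): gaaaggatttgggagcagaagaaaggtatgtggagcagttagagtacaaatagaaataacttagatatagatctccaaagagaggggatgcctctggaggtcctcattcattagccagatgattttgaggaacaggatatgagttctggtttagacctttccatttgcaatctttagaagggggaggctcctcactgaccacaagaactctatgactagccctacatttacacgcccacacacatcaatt
The same letters, GGAATTTCC, stood 60 to 52 bases before the start of the canonical transcript of *Cxcl1* and 107 to 99 bases before that of *Cxcl5*, which starts downstream of the first base of the gene. Over the windows of all 21757 protein-coding genes, GGANTTTCC was found in 1.18%, and among the 65 members in 9. It stood in 4 of the 25 tested members and in 3 of the 12 called in any comparison, *Cxcl1* and *Cxcl5* among them. TTCNNNGAA was found in 7.70% of all windows and in 7 members, among them *Ccl2* and *Ccl12*, which rose, and *Cxcl14*, which was not called. It stood in 3 of the 25 tested members and in 2 of the 12 called. Neither motif stood in the windows of the called *Ccl4*, *Ccl7*, *Cx3cl1*, *Cxcl16*, *Ackr3*, *Ccr1* and *Cx3cr1*. A match describes these letters only.

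In unstimulated cultures the most abundant member per length was a receptor. *Cx3cr1*, the fractalkine receptor of microglia, stood at 137 ± 15.3 TPM (SD, n = 5), and *Cxcr4*, the classical receptor of CXCL12, at 68.7 ± 2.69 TPM (SD, n = 5). They were followed by the ligand genes *Ccl3*, an inflammatory CC ligand, at 60.4 ± 7.44 TPM (SD, n = 5) and *Cxcl14*, whose receptor is debated, at 58.6 ± 4.96 TPM (SD, n = 5). The levels of *Ccl3* and *Cxcl14* overlapped from culture to culture and gave no order between them, while every culture had more *Cx3cr1* than any had *Cxcr4*. *Ccl27a*, *Ccl12*, *Ccl4*, *Cxcl16*, *Ccl2* and *Cx3cl1* came next, with means between 35.8 and 23.8 TPM, and neighbours among these overlapped too. *Ackr3*, an atypical receptor that scavenges CXCL12, stood at 18.3 ± 0.665 TPM (SD, n = 5), close to *Cxcl12* itself at 17.1 ± 1.58 TPM (SD, n = 5). At the low end of the tested members, *Cxcl1* had 0.687 ± 0.152 TPM (SD, n = 5) and the scavenger *Ackr4* 0.741 ± 0.235 TPM (SD, n = 5).

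**Figure D1:**
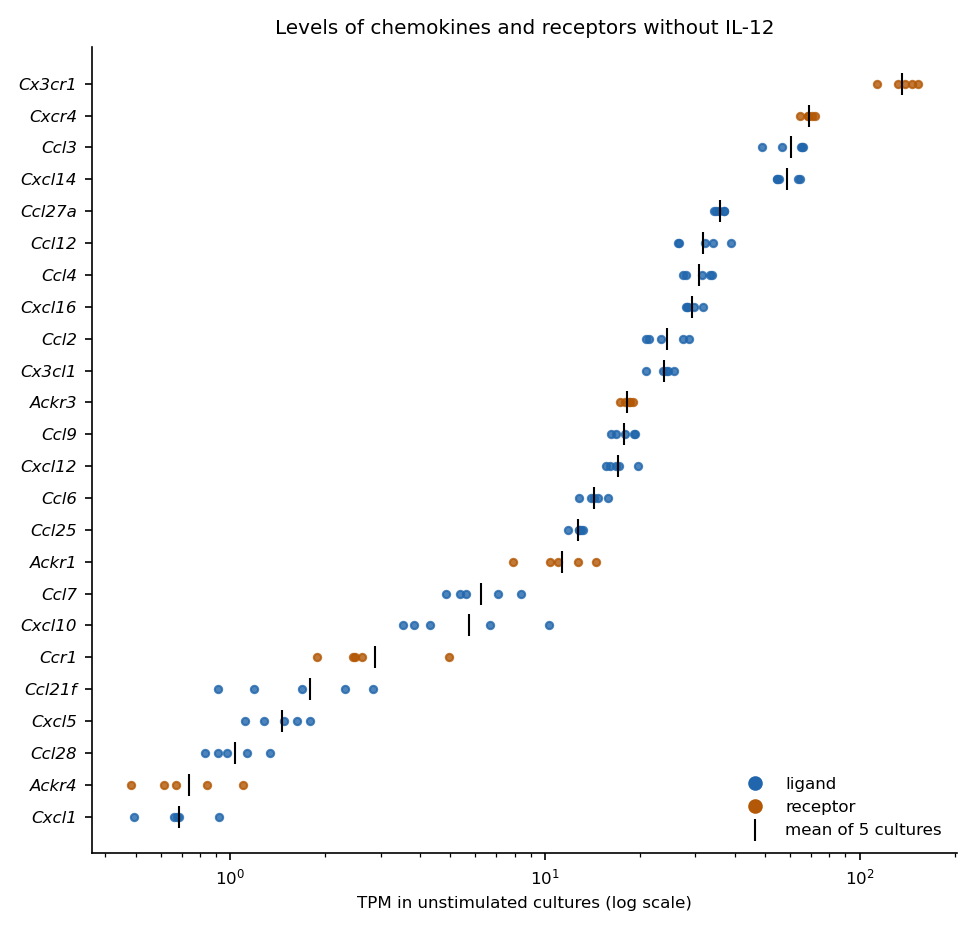
TPM of 24 of the 25 tested members in the 5 unstimulated cultures, on a log scale, with ligands in blue, receptors in orange and the mean as a vertical bar. *Cx3cr1* and *Cxcr4* lead, and the other receptors lie at or under the 18.3 TPM of *Ackr3*.

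With 100 ng/ml IL-12, 11 of the 25 tested members changed at a Benjamini-Hochberg FDR under 0.05 in edgeR's quasi-likelihood test (called, from here on), against 9.77% of all 15360 genes tested. Of 18 ligands 8 were called higher and 0 lower, whereas of 7 receptors 2 were called lower, *Ccr1* among them, and the atypical *Ackr3* higher. Over all genes, 5.83% were called higher and 3.93% lower. The median log2 fold change was 0.25 for the tested ligands, -0.10 for the tested receptors and -0.004 for all genes. In 9 of the 25 members the 2 groups did not overlap, against 7.17% of all genes. At 30 ng/ml, 6 members were called, against 7.87% of all genes: 4 ligands rose and 2 receptors fell, where 4.16% of all genes rose and 3.71% fell. The groups did not overlap in 6 members, against 8.89% of all genes, and the medians were 0.13 for ligands, -0.13 for receptors and 0.0001 for all genes. Both comparisons share the unstimulated cultures. Both also count *Cxcl1*, which reached 1 CPM in stimulated cultures alone, so its place among the tested members depends on its rise. With at least 10 counts in every culture, which left *Cxcl1* out, 10 of 24 members were called at 100 ng/ml (9.66% of all genes). At 30 ng/ml, 5 of 24 were called under that filter (7.91%). Under another rule, an unadjusted edgeR p up to 0.01 with a log2 change of 0.5 or more in either direction, 8 members passed at 100 ng/ml (2.01% of all genes), 4 at 30 ng/ml (1.58%) and 1 between the doses (0.508%).

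**Figure D2:**
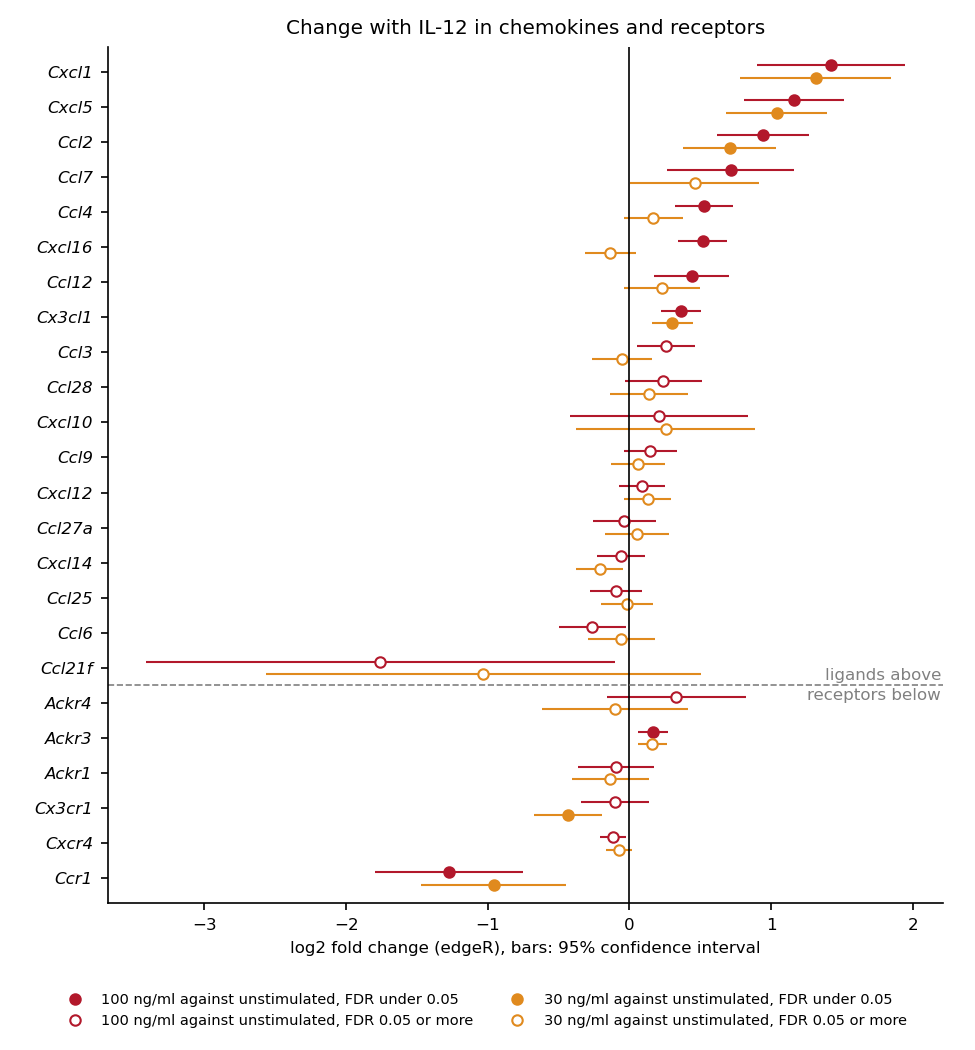
Log2 fold change of 24 of the 25 tested members at 100 ng/ml (red) and 30 ng/ml (orange) against unstimulated cultures, with 95% confidence intervals and filled points where the FDR was under 0.05. The filled points of the ligands all lie above 0, those of *Ccr1* and *Cx3cr1* below it.

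*Cxcl1* and *Cxcl5*, ligands of the neutrophil receptor CXCR2 with the ELR motif before the first cysteine, had the largest fold changes of the called ligands and were at low levels. *Cxcl1* (chromosome 5, 91039094 to 91040974) was at 0.314, 0.394, 0.438, 0.538 and 0.344 CPM in the 5 unstimulated cultures, at 1.45, 0.834, 1.27, 0.550 and 0.920 CPM at 30 ng/ml and at 1.03, 1.21, 1.04, 0.942 and 1.19 CPM at 100 ng/ml. All stimulated cultures were above all unstimulated ones, and the spread was widest at 30 ng/ml. It rose 2.68-fold at 100 ng/ml (log2 fold change 1.42, standard error 0.25, FDR = 0.00165) and 2.49-fold at 30 ng/ml (1.31, standard error 0.25, FDR = 0.00471). Only 9 to 44 reads per culture stood behind these values, and *Cxcl1* reached 1 CPM in stimulated cultures alone, so its place among the tested genes depends on the rise. It was called in the fit without a filter as well. *Cxcl5* (chromosome 5, 90907186 to 90909483) was at 1.28, 1.61, 1.17, 1.08 and 1.45 CPM without IL-12, at 3.23, 2.82, 3.44, 1.89 and 2.16 CPM at 30 ng/ml and at 2.95, 3.40, 2.62, 3.06 and 2.74 CPM at 100 ng/ml. No stimulated culture overlapped an unstimulated one. *Cxcl5* rose 2.24-fold (log2 fold change 1.16, standard error 0.17, FDR = 0.000387) and 2.05-fold at 30 ng/ml (1.04, standard error 0.17, FDR = 0.00146). The stretch of chromosome 5 from 90907186 to 91053797 holds 5 members, of which these 2 were tested and both rose. *Cxcl1* was tested only through its stimulated cultures, so its rise among the tested members carries no weight here. Genes there whose symbols lie outside the naming rule were not counted. *Cxcl2* had 0 to 12 reads per culture and *Cxcl3* 0 to 5. *Cxcl5* overlaps a long noncoding gene on the opposite strand, and whether the counting used the strand is not stated.

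*Ccl2*, *Ccl7* and *Ccl12*, ligands of the monocyte receptor CCR2, lie together on chromosome 11, in a cluster of 6 ligand genes from 81926397 to 82196516, and these were the 3 members of it that could be tested. *Ccl2* (81926397 to 81928279) was at 8.62, 9.61, 12.1, 11.7 and 8.37 CPM in unstimulated cultures, at 12.8, 16.9, 22.7, 13.7 and 16.2 CPM at 30 ng/ml and at 21.8, 24.4, 18.2, 15.5 and 17.0 CPM at 100 ng/ml. Every stimulated culture stood above every unstimulated one, and the doses overlapped. It rose 1.92-fold at 100 ng/ml (log2 fold change 0.94, standard error 0.16, FDR = 0.00104) and 1.63-fold at 30 ng/ml (0.71, standard error 0.16, FDR = 0.0103). *Ccl7* was at 2.77, 2.19, 2.34, 3.55 and 1.91 CPM without IL-12, at 2.38, 3.61, 4.12, 3.78 and 3.75 CPM at 30 ng/ml and at 4.57, 6.34, 4.34, 2.86 and 3.06 CPM at 100 ng/ml. *Ccl12* was at 6.04, 7.78, 9.61, 8.57 and 6.15 CPM without IL-12, at 7.79, 8.13, 10.7, 10.2 and 7.82 CPM at 30 ng/ml and at 10.8, 11.3, 9.04, 10.6 and 9.82 CPM at 100 ng/ml. In both genes the highest unstimulated culture lay above the lowest culture at 100 ng/ml. At 100 ng/ml *Ccl7* rose 1.64-fold (log2 fold change 0.72, standard error 0.21, FDR = 0.0417) and *Ccl12* 1.36-fold (0.44, standard error 0.13, FDR = 0.0365). Neither passed at 30 ng/ml, where *Ccl7* was at 0.46 (95% confidence interval 0.004 to 0.91, FDR = 0.216) and *Ccl12* at 0.23 (-0.04 to 0.50, FDR = 0.311).

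The calls of *Ccl7* and *Ccl12* depended on single cultures and on the fit. With protein-coding transcripts alone neither was called (FDR = 0.0533 and 0.0767), nor was *Ccl7* with only the 2 groups compared (FDR = 0.0675). *Ccl7* was not called without replicate 1, 2 or 3 at 100 ng/ml (FDR = 0.0919, 0.0660 and 0.0800), without replicate 2 at 30 ng/ml (FDR = 0.0508), or without unstimulated replicate 1, 2, 3 or 5 (FDR = 0.0701, 0.0806, 0.0808 and 0.104), with log2 fold changes from 0.53 to 0.75 in these fits. *Ccl12* was not called without replicate 1, 4 or 5 at 100 ng/ml (FDR = 0.0797, 0.0678 and 0.0505), or without unstimulated replicate 1, 2 or 5 (FDR = 0.100, 0.0553 and 0.0955), with log2 fold changes from 0.36 to 0.46.

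*Ccl3* and *Ccl4*, inflammatory CC ligands that lie side by side in a second cluster on chromosome 11 (83416602 to 83555509), did not give the same call. *Ccl4* was at 8.88, 9.39, 11.7, 10.9 and 10.9 CPM without IL-12, at 10.4, 10.9, 13.8, 12.9 and 9.98 CPM at 30 ng/ml and at 15.4, 14.7, 14, 16.9 and 13.5 CPM at 100 ng/ml. The cultures at 100 ng/ml were all above the unstimulated ones, and those at 30 ng/ml were not. It rose 1.44-fold at 100 ng/ml (log2 fold change 0.53, standard error 0.10, FDR = 0.00249) and was at 0.17 at 30 ng/ml (95% confidence interval -0.04 to 0.38, FDR = 0.340). *Ccl3* was at 21.4, 19.2, 26.3, 26.5 and 24.5 CPM without IL-12, at 21.5, 23.6, 26.3, 24.2 and 17.9 CPM at 30 ng/ml and at 26.3, 31.7, 26.1, 29.4 and 27.2 CPM at 100 ng/ml. At 100 ng/ml its log2 fold change came to 0.26 (95% confidence interval 0.05 to 0.47, FDR = 0.107), and the groups overlapped. A difference between the responses of the 2 genes was not tested. The myeloid ligand genes *Ccl6* and *Ccl9* of the same cluster were at -0.26 (-0.50 to -0.02, FDR = 0.152) and 0.15 (-0.04 to 0.34, FDR = 0.318) at 100 ng/ml, and *Ccl5* had 1 to 11 reads per culture.

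*Cx3cl1* (chromosome 8, 95498637 to 95509055), which encodes the membrane-anchored fractalkine, rose slightly at both doses. It was at 46.2, 46.1, 45, 41.1 and 43.9 CPM without IL-12, at 53.3, 48.5, 56.3, 60.4 and 55.7 CPM at 30 ng/ml and at 64.3, 50.2, 62.6, 53.6 and 55.2 CPM at 100 ng/ml. No stimulated culture was as low as any unstimulated one. The change was 1.29-fold at 100 ng/ml (log2 fold change 0.36, standard error 0.07, FDR = 0.00298) and 1.23-fold at 30 ng/ml (0.30, standard error 0.07, FDR = 0.0123), and 1146 to 2053 reads per culture stood behind it.

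**Figure D3:**
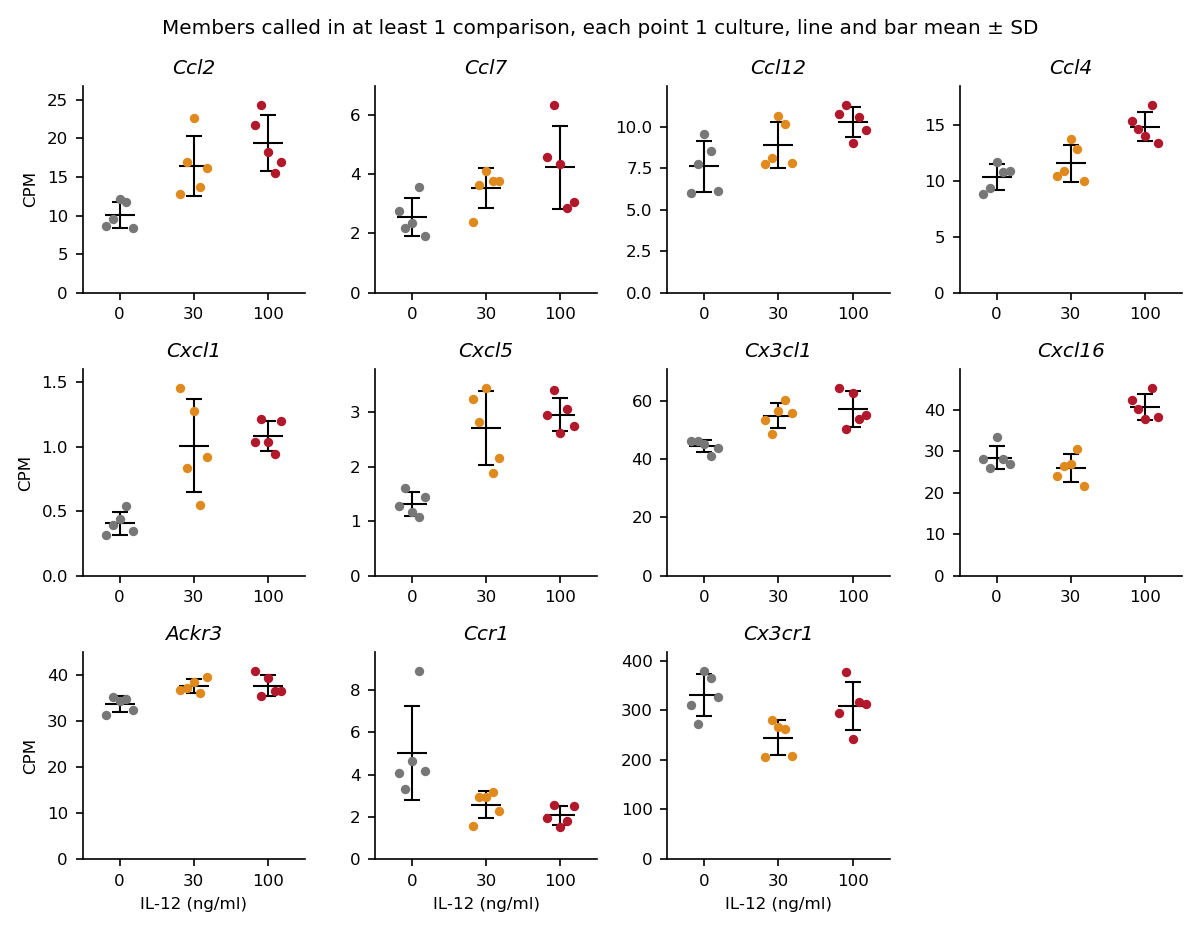
CPM of 11 of the 12 members called in at least 1 comparison, by IL-12 concentration, with 1 point per culture, the mean as a line and the SD as a bar. *Cxcl1*, *Cxcl5*, *Ccl2* and *Cx3cl1* were called higher at both doses, *Ccr1* lower at both, and *Cxcl16* higher at 100 ng/ml only.

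*Cxcl16* (chromosome 11, 70344517 to 70352620), a membrane-anchored ligand of CXCR6 and a scavenger receptor for oxidized lipids, was the 1 member that differed between the doses, where 0.579% of all genes were called (0.501% higher and 0.0781% lower at 100 ng/ml). It was at 28.1, 26, 33.3, 28.0 and 26.9 CPM in unstimulated cultures, at 24.0, 26.6, 26.9, 30.5 and 21.6 CPM at 30 ng/ml and at 42.3, 40.3, 37.7, 45.2 and 38.1 CPM at 100 ng/ml. All cultures at 100 ng/ml stood above the other 10, and the 2 other groups overlapped. Compared with 30 ng/ml it was 1.57-fold higher (log2 fold change 0.65, standard error 0.08, FDR = 0.000822) and compared with unstimulated cultures 1.43-fold (0.52, standard error 0.08, FDR = 0.000858), while 30 ng/ml gave -0.14 (95% confidence interval -0.31 to 0.04, FDR = 0.374). The one member apart between the doses was likewise *Cxcl16*, against 2.97% of all genes.

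Most reads of *Cxcl16* were assigned to transcripts annotated as targets of nonsense-mediated decay or as holding a retained intron. These took 52.2% to 69.6% of them in unstimulated cultures, 55.5% to 61.4% at 30 ng/ml and 59.8% to 65.4% at 100 ng/ml. The coding transcript of *Cxcl16* stood at 7.17, 4.79, 9.29, 6.90 and 7.32 TPM without IL-12, at 6.45, 6.81, 6.36, 7.21 and 6.04 TPM at 30 ng/ml and at 9.02, 8.53, 9.05, 10.5 and 9.14 TPM at 100 ng/ml. One unstimulated culture reached into the range at 100 ng/ml. The decay target, the most abundant of the 3, was between 16.8 and 18.5 TPM without IL-12, between 14.1 and 21.3 TPM at 30 ng/ml and between 21.1 and 28.2 TPM at 100 ng/ml, so that the doses touched. The retained-intron transcript was between 2.80 and 5.48 TPM without IL-12, between 1.36 and 4.18 TPM at 30 ng/ml and between 6.28 and 7.68 TPM at 100 ng/ml, with no overlap of the highest group with the others. When protein-coding transcripts alone were summed, *Cxcl16* was not called against unstimulated cultures (log2 fold change 0.39, FDR = 0.0642) or against 30 ng/ml (0.54, FDR = 0.0813). The gene also overlaps *Med11* and *Zmynd15* on the opposite strand, and their part in the result was not tested. Besides *Cxcl5*, the other tested members with a gene or pseudogene on the opposite strand were *Cx3cl1*, *Cxcl10*, *Ccl3*, *Ccl6*, *Ccl9*, *Ccl21f*, *Ccl25*, *Ccl27a*, *Ccl28*, *Cx3cr1*, *Ackr1* and *Ackr4*, and *Ackr1*, *Ccl21f* and *Ccl25* also overlap one on their own strand.

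**Figure D4:**
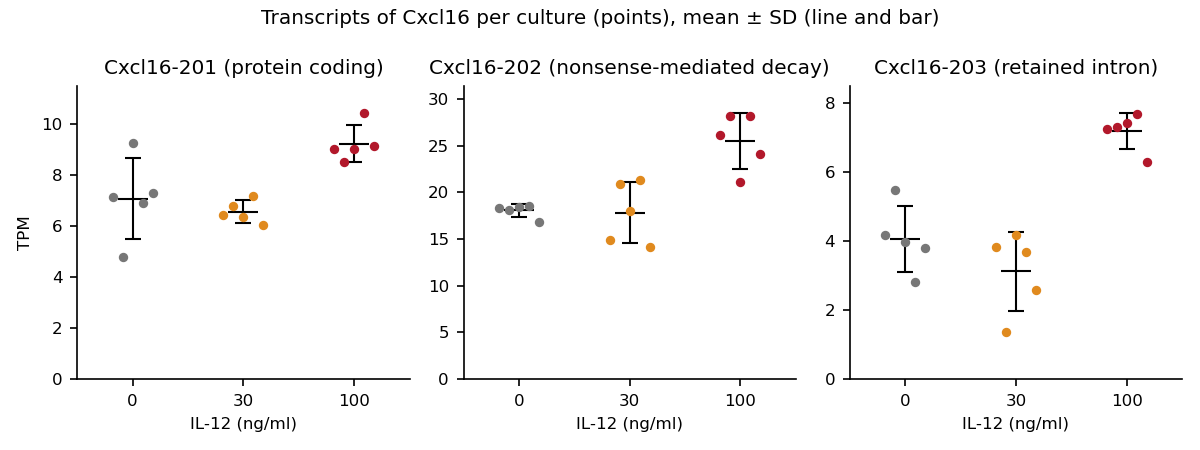
TPM of the 3 transcripts of *Cxcl16* in each culture, by IL-12 concentration, with the mean as a line and the SD as a bar. The retained-intron transcript at 100 ng/ml lies between 6.28 and 7.68 TPM, above all other cultures.

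The interferon-inducible ligand genes, whose products bind CXCR3, did not pass. *Cxcl10* was at 2.19, 2.55, 6.32, 3.33 and 1.99 CPM without IL-12, at 3.89, 2.64, 7.11, 2.89 and 2.97 CPM at 30 ng/ml and at 3.23, 3.17, 4.08, 3.90 and 4.37 CPM at 100 ng/ml. One culture of each of the first 2 groups was far above the rest of its group, and all groups overlapped. The log2 fold change was 0.21 at 100 ng/ml (95% confidence interval -0.42 to 0.84, FDR = 0.711) and 0.26 at 30 ng/ml (-0.37 to 0.89, FDR = 0.674). A change within those limits was not excluded. *Cxcl9* had 1 to 9 reads and *Cxcl11* 0 to 7 reads per culture, and *Ifng*, a cytokine that induces them, at most 1 read.

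*Cxcl12*, *Cxcl14*, *Ccl27a*, *Ccl28*, *Ccl25* and *Ccl21f* were not called at either dose. *Cxcl12* was at 0.09 at 100 ng/ml (95% confidence interval -0.07 to 0.25, FDR = 0.505) and 0.13 at 30 ng/ml (-0.04 to 0.29, FDR = 0.353), from 23.4 ± 2.23 CPM (SD, n = 5) without IL-12. *Cxcl14* was at 54.8, 56.9, 67.6, 68.3 and 54.6 CPM without IL-12, at 51.2, 53.5, 58.7, 52.1 and 45.7 CPM at 30 ng/ml and at 60.9, 59.7, 49.1, 60.2 and 60.3 CPM at 100 ng/ml. Its groups overlapped, with -0.06 (-0.23 to 0.11, FDR = 0.691) at 100 ng/ml and -0.21 (-0.38 to -0.04, FDR = 0.116) at 30 ng/ml. *Ccl27a* and *Ccl28*, epithelial ligands of CCR10, were at -0.04 (-0.26 to 0.19, FDR = 0.868) and 0.24 (-0.03 to 0.51, FDR = 0.258) at 100 ng/ml. *Ccl27a* was at 7.71, 8.0, 7.85, 8.21 and 7.68 CPM without IL-12, at 9.08, 6.71, 6.29, 9.10 and 9.66 CPM at 30 ng/ml and at 8.40, 7.36, 8.36, 7.33 and 6.99 CPM at 100 ng/ml, and its groups overlapped. *Ccl25*, a ligand of the gut-homing receptor CCR9, was at -0.10 (-0.28 to 0.09, FDR = 0.526). Between 46.5% and 88.9% of the reads of *Ccl25* in a culture, and between 22.5% and 61.4% of those of *Ccl27a*, were assigned to noncoding transcripts. *Ccl21f* was at -1.76 (-3.42 to -0.10, FDR = 0.167) with 0 to 31 reads per culture. The *Ccl21* genes are near-identical copies between which the reads are divided, so that the value of a single copy is uncertain, and their sum was 23 to 53 reads without IL-12 and 26 to 36 reads at 100 ng/ml.

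Among the receptors, *Ccr1*, an inflammatory CC receptor that binds CCL3 with other CC ligands, fell. *Ccr1* (chromosome 9, 123762161 to 123768734) was at 4.08, 3.30, 4.64, 8.89 and 4.17 CPM without IL-12, at 1.58, 2.92, 2.96, 3.16 and 2.27 CPM at 30 ng/ml and at 1.94, 2.54, 1.52, 1.82 and 2.51 CPM at 100 ng/ml. All unstimulated cultures were above all stimulated ones, and replicate 4 among them, at 8.89 CPM, was far above the next, at 4.64 CPM. The log2 fold change was -1.28 at 100 ng/ml (2.42-fold lower, standard error 0.25, FDR = 0.00367) and -0.96 at 30 ng/ml (1.94-fold lower, standard error 0.24, FDR = 0.0217). At 30 ng/ml the call was lost without unstimulated replicate 4 (-0.65, FDR = 0.0532), without replicate 1 at 30 ng/ml (-0.82, FDR = 0.0624) and without replicate 5 at 30 ng/ml (-0.91, FDR = 0.0570). At 100 ng/ml *Ccr1* was called in all 24 other settings tried, with values from -1.39 to -0.97. The RNA is that of whole cultures, in which fewer cells of a type and less RNA per cell cannot be told apart. Beside the fall at 100 ng/ml, 0 of 12 tested microglia markers were called (edgeR; median log2 fold change -0.14), and their summed level was 6033 to 7955 CPM against 6233 to 8913 CPM without IL-12. Beside the fall at 30 ng/ml, 8 of the 12 markers fell, with a median of -0.42. The joint list of monocytes, neutrophils and border macrophages summed to 63.0 to 166 CPM without IL-12, highest in replicate 4. It summed to 61.2 to 107 CPM at 30 ng/ml and 70.8 to 94.3 CPM at 100 ng/ml. Of its 8 markers 1 was tested and 0 were called. The part of both lists in the result was not tested.

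*Cx3cr1* (chromosome 9, 119877749 to 119898945) was lower at 30 ng/ml alone. It was at 310.3, 273, 379, 364 and 328 CPM without IL-12, at 207, 281, 266, 263 and 207 CPM at 30 ng/ml and at 294, 377, 243, 316 and 313 CPM at 100 ng/ml. One culture at 30 ng/ml lay above the lowest unstimulated one. The change at 30 ng/ml was -0.43 (1.35-fold lower, standard error 0.11, FDR = 0.0251), against -0.10 at 100 ng/ml (95% confidence interval -0.34 to 0.14, FDR = 0.618), and the doses were not called different (0.33, 0.09 to 0.57, FDR = 0.234). The call was lost without replicate 1 or 5 at 30 ng/ml (-0.38 and -0.38, FDR = 0.0732 and 0.0740) and without unstimulated replicate 3 or 4 (-0.38 and -0.40, FDR = 0.0759 and 0.0665). At 30 ng/ml, 8 of 12 tested microglia markers fell too, where 3.71% of all genes fell. The list had a median of -0.42 and a summed level of 4863 to 6219 CPM, under the lowest unstimulated culture in all 5. The part of these markers in the result was not tested.

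*Cxcr4* was at 58.4, 62.6, 63.4, 58.9 and 56.6 CPM without IL-12, at 55.8, 57.9, 56.6, 59.3 and 55.3 CPM at 30 ng/ml and at 54.7, 51.4, 55.1, 57.5 and 58.3 CPM at 100 ng/ml. The groups overlapped, and the interval at 100 ng/ml was narrow, -0.11 (-0.21 to -0.02, FDR = 0.108). *Ackr3* was at 31.4, 35.3, 34.4, 34.7 and 32.3 CPM without IL-12, at 36.6, 37.2, 38.5, 36.1 and 39.7 CPM at 30 ng/ml and at 40.8, 35.4, 39.3, 36.5 and 36.4 CPM at 100 ng/ml. All stimulated cultures were above all unstimulated ones by a small margin. *Ackr3* rose 1.12-fold at 100 ng/ml (log2 fold change 0.17, standard error 0.05, FDR = 0.0424) and did not pass at 30 ng/ml (0.16, 95% confidence interval 0.06 to 0.27, FDR = 0.0524). The call at 100 ng/ml was lost without replicate 1, 3, 4 or 5 at this dose (FDR = 0.110, 0.0954, 0.0536 and 0.0505), without replicate 3 at 30 ng/ml (FDR = 0.0527) and without unstimulated replicate 1, 3 or 5 (FDR = 0.116, 0.0597 and 0.103), with log2 fold changes from 0.14 to 0.18. It was also lost without a filter (FDR = 0.0707), with only the 2 groups compared (FDR = 0.0839) and with protein-coding transcripts alone (FDR = 0.0570). At 30 ng/ml a call was gained by DESeq2 (FDR = 0.0285), by the likelihood-ratio test (FDR = 0.0375), with library size alone (FDR = 0.0294) and with only the 2 groups compared (FDR = 0.0394), and without replicate 1 or 2 at 100 ng/ml (FDR = 0.0363 and 0.0341) and without unstimulated replicate 2 (FDR = 0.0381). The Duffy receptor gene *Ackr1*, at 6.48, 6.63, 8.98, 5.20 and 7.87 CPM without IL-12, was at 6.40, 6.71, 6.33, 5.94 and 6.58 CPM at 30 ng/ml and at 8.43, 6.57, 5.61, 6.12 and 6.12 CPM at 100 ng/ml, with overlapping groups and -0.10 at 100 ng/ml (-0.36 to 0.17, FDR = 0.687). *Ackr4* was at 0.33 (-0.16 to 0.82, FDR = 0.401).

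Added up per culture, the 42 ligand genes gave 378 ± 22.3 TPM (SD, n = 5) without IL-12, 412 ± 26.1 TPM (SD, n = 5) at 30 ng/ml and 457 ± 25.1 TPM (SD, n = 5) at 100 ng/ml. The sums at 100 ng/ml, 431 to 496 TPM, lay above the unstimulated ones, 359 to 408 TPM, and those at 30 ng/ml overlapped both groups. The 23 receptor genes gave 243 ± 16.4, 208 ± 14.7 and 226 ± 20.5 TPM (SD, n = 5 each) in that order, and these groups overlapped. *Cx3cr1* made up 45.9% to 63.0% of the receptor sum in a culture. The ratio of ligands to receptors was 1.5 to 1.63 without IL-12, 1.81 to 2.08 at 30 ng/ml and 1.87 to 2.2 at 100 ng/ml.

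**Figure D5:**
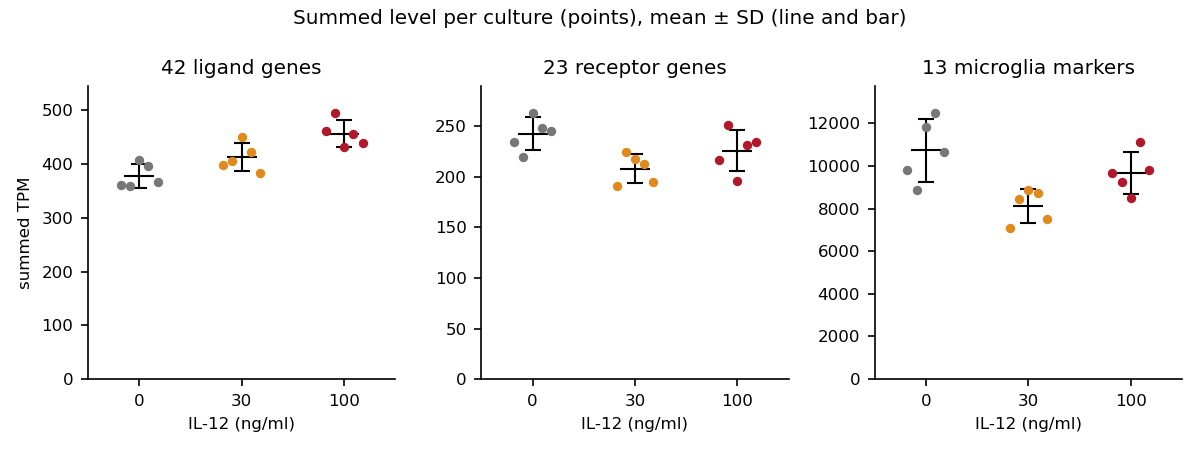
Summed TPM of the 42 ligand genes, the 23 receptor genes and 13 microglia markers in each culture, by IL-12 concentration, with the mean as a line and the SD as a bar. Ligand sums at 100 ng/ml (431 to 496 TPM) lie above those without IL-12 (359 to 408 TPM), and the receptor sums overlap.

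Set beside their partners, several ligands that rose had receptors near the limit of detection. *Ccr2*, the receptor of *Ccl2*, *Ccl7* and *Ccl12*, had 3 to 11 reads per culture. *Cxcr2*, the receptor of *Cxcl1* and *Cxcl5*, had 8 to 23 reads, and *Cxcr6*, the receptor of *Cxcl16*, 0 to 5 reads. The reads of *Cxcl1* were themselves few and overlapped in range with those of *Cxcr2*. In other pairs both sides were tested. *Cx3cl1* rose at both doses, while *Cx3cr1* was called lower at 30 ng/ml and not at 100 ng/ml. *Cxcl12* and *Cxcr4* were not called at either dose, and *Ackr3* rose at 100 ng/ml. *Ccl3* was not called at either dose, and its receptor *Ccr1* fell at both. In the other pairs neither side reached the threshold, or the receptor alone did not: *Ccr9*, *Ccr10* and *Cxcr5* had at most 10 reads, *Cxcr3* had 10 to 38, and *Ccr4*, *Ccr6* and *Ccr7* at most 1.

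The 40 members under the threshold had at most 38 reads in a culture, the highest being *Cxcr3*, whose mean was 0.803 CPM without IL-12, 0.449 CPM at 30 ng/ml and 0.623 CPM at 100 ng/ml. Just inside the threshold were *Ccl21f*, with a mean of 0.695 CPM without IL-12 and at most 1.11 CPM in a culture, *Ackr4*, with a mean of 0.830 CPM without IL-12, and *Cxcl1*. Reads were found for 33 of the 40, and 7 (*Ccl1*, *Ccl21a*, *Ccl26*, *Ccl27b*, *Xcl1*, *Ccr8* and *Cxcr1*) were at 0 in all 15 cultures, which allows a level of up to 0.0784 to 0.117 CPM, depending on the culture (3 counts, counting error only). A fit without the threshold tested 58 members and called 10 at 100 ng/ml, all of them among the 11 above.

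Of 36 listed genes that handle chemokines or act downstream of their receptors, 34 were tested: at 100 ng/ml *Pik3r5*, a regulatory subunit of the G-protein-driven PI3-kinase, rose (log2 fold change 0.39) and *Pf4* (-0.58), a platelet chemokine gene named outside the scheme, *Rgs1* (-0.74) and *Rgs2* (-0.22), which quench G-protein signals, fell. With 30 ng/ml *Rgs16* rose (0.38) and 10 fell, *Pf4* (-0.76), *Dock2* (-0.29), *Elmo1* (-0.26), *Vav1* (-0.35), *Rgs1* (-0.80), *Rgs2* (-0.32), *Rgs10* (-0.34), *Ptk2b* (-0.27), the protease *Ctss* (-0.49) and the chemokine-trimming protease *Dpp4* (-0.82). So 1 of the 34 rose and 3 fell at 100 ng/ml, where 5.83% of all genes rose and 3.93% fell. At 30 ng/ml 1 rose and 10 fell, where 4.16% of all genes rose and 3.71% fell. The list had a median of -0.05 with 100 ng/ml and of -0.10 with 30 ng/ml, against -0.004 and 0.0001 over all genes. Several of these genes are known to be made by microglia, and the 8 microglia markers that fell at 30 ng/ml stand above. Which cells made this RNA was not measured, and the part of the markers in the falls was not tested. Between the doses *Pik3r5* alone was called by edgeR (0.44, FDR = 0.00496), against 0.579% of all genes. Of 10 listed cytokine genes that may act on chemokine genes, 3 were tested. By edgeR *Tnf* rose at 100 ng/ml (0.63, FDR = 0.000104) and against 30 ng/ml (0.42, FDR = 0.0155). The part of *Tnf* in the other changes was not tested.

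Some markers of other cells were also called, where 9.77% of all genes were called at 100 ng/ml, 7.87% at 30 ng/ml and 0.579% between the doses. At 100 ng/ml, of 11 astrocyte markers *Aldoc* rose (0.29) and *Gja1* fell (-0.19), of 11 oligodendrocyte-lineage markers 3 fell, *Mbp* (-0.31) and *Mag* (-0.30) among them, of 12 tested neuron markers *Tubb3* rose (0.43) and *Calb1* fell (-0.56), and of 4 tested endothelial markers *Flt1* fell (-0.57). Of 7 fibroblast and meningeal markers *Col1a1* (0.36) and *Pdgfrb* (0.31) rose, and the list summed to 1015 to 1378 CPM against 783 to 1044 CPM without IL-12. With 30 ng/ml, 3 astrocyte markers rose, 1 oligodendrocyte-lineage marker fell, 2 neuron markers rose and 2 fell, and *Flt1* fell. Between the doses the astrocyte gene *Sox9* alone was called (-0.29). Of 7 T and NK cell markers 2 were tested and of 8 monocyte, neutrophil and border macrophage markers 1, with 0 calls by edgeR; *Ncr1*, *S100a9* and *Ly6g* were at 0 reads. Summed per culture, astrocyte markers gave 6767 to 7534 CPM without IL-12, 7496 to 8790 CPM at 30 ng/ml and 7279 to 8197 CPM at 100 ng/ml, and oligodendrocyte-lineage markers 8778 to 11582, 8009 to 9667 and 7784 to 8871 CPM. Neuron markers gave 380.2 to 449, 393 to 465 and 392 to 458 CPM, and endothelial markers, of which *Cldn5* was at 0 reads, 81.1 to 122, 65.3 to 88.8 and 67.0 to 83.4 CPM. T and NK cell markers gave 4.16 to 11, 3.65 to 7.49 and 4.80 to 8.14 CPM, and those of monocytes, neutrophils and border macrophages 63.0 to 166, 61.2 to 107 and 70.8 to 94.3 CPM, in the same order. The part of these lists in the results was not tested.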

How the data were processed

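RNA of 15 cultures was sequenced from TruSeq stranded mRNA libraries as single-end reads. The submitters' processing notes name FastQC 0.10.0, STAR 2.7.8a, featureCounts and GRCm39, and the methods GENCODE release M26. The deposited files hold, for 121798 transcripts, estimated counts and TPM made by the authors with a program not given in the sources used here. Gene counts had been assumed, so these expected counts were summed to genes with GENCODE release M39 (99.0% of transcripts matched; the rest held at most 0.712% of reads) and rounded. TPM were summed likewise. CPM are scaled with edgeR's TMM factors (0.981 to 1.020).

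A threshold of 1 CPM in 2 or more cultures was applied, and the genes above it were fitted with edgeR 4.0.16 (quasi-likelihood, R 4.3.3) in 1 fit of 3 groups, with Benjamini-Hochberg adjustment (FDR) over all genes tested. A call is an FDR under 0.05. The biological coefficient of variation was 8.00%. Alternatives were DESeq2 1.42.0, the likelihood-ratio test, RLE factors or library size alone, no filter or at least 10 counts in every culture, only the groups compared, the replicate number as a block, other thresholds and each culture left out. Summing protein-coding transcripts alone was added after seeing the data.

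Members over the threshold are named by role (1 of them, and 1 listed marker, entered all fits and counts but are not reported here), with values in every culture for those called and those most abundant without IL-12. The lists cover chemokine signalling and handling, cytokines that may act on chemokine genes, and cell type markers. The markers are for astrocytes, microglia, neurons, oligodendrocyte-lineage cells, endothelium, fibroblasts with meninges and lymphocytes (T and NK). Monocytes, border macrophages and neutrophils share a joint list. Of 14 microglia markers 1, *Fcrls*, was not matched. Members and lists were chosen with earlier results of these data known. Sums over members were not tested. Promoters were read from GRCm39. Figures were drawn with Python 3.11.15.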

Additional observations from a re-analysis of the deposited data

Results flagged for a closer look

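Of 75 groups of 5 cultures (25 members in 3 groups), 5 had a culture whose gap to its nearest neighbour was more than 0.71 of the range of the group, Dixon's 95% critical value, and chance alone flags about 1 group in 20. *Ccl7* was at 2.38 CPM in replicate 1 at 30 ng/ml, under 3.61 CPM in the next. *Cxcl10* was at 7.11 CPM in replicate 3 at 30 ng/ml, above 3.89 CPM. *Cxcl14* was at 49.1 CPM in replicate 3 at 100 ng/ml, under 59.7 CPM. *Cxcl16* was at 33.3 CPM in unstimulated replicate 3, above 28.1 CPM. *Ccr1* was at 8.89 CPM in unstimulated replicate 4, above 4.64 CPM.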

How the results depend on the processing

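At 100 ng/ml, 11 members were called, 7 at an FDR under 0.01, 7 with protein-coding transcripts alone (chosen after seeing the data; without *Ccl7*, *Ccl12*, *Cxcl16* and *Ackr3*) and 8 to 11 with each culture left out. At 30 ng/ml, 6 were called, 2 at an FDR under 0.01 and 4 to 7 with each culture left out. Between the doses 1 was called, 2 by DESeq2 and by the likelihood-ratio test (*Ccl4* in addition, FDR = 0.0350 and 0.0351), 1 with each culture left out, and 0 in edgeR with protein-coding transcripts alone, where 4 had an unadjusted p under 0.05. *Ccl2*, *Cxcl1*, *Cxcl5* and *Cx3cl1* at both doses, and *Ccl4* and *Ccr1* at 100 ng/ml, were called in every fit at an FDR under 0.05 that tested them. The labels do not say whether the replicate number pairs the cultures. Same-numbered cultures correlated between -0.18 and 0.26, and 3 of 15 correlated best with their own number. These values show no clear pairing and cannot exclude it. With the replicate number as a block, 9 members were called at 100 ng/ml (without *Ccl7*, FDR = 0.0694, and *Ackr3*, FDR = 0.0790), 6 at 30 ng/ml and 1 between the doses. Signs changed for uncalled values only: with protein-coding transcripts, *Ccl25* (0.23 at 100 ng/ml, 0.067 at 30 ng/ml, 0.16 between the doses), *Ccl27a* (0.0035 at 100 ng/ml) and *Ccl6* (0.10 at 30 ng/ml); with library size alone, *Ccl25* (0.0037 at 30 ng/ml) and *Ackr3* (-0.0092 between the doses); with the block, *Cxcl10* (0.030 between the doses). Leaving out 1 culture changed 17 more signs, with ranges of -0.20 to 0.0071 for *Ackr1* at 100 ng/ml; of -0.23 to 0.13 for *Ackr4*, -0.077 to 0.029 for *Ccl25*, -0.013 to 0.13 for *Ccl27a*, -0.12 to 0.025 for *Ccl3* and -0.069 to 0.63 for *Cxcl10* at 30 ng/ml; and of -0.068 to 0.094 for *Ackr1*, -0.027 to 0.024 for *Ackr3*, -0.045 to 0.28 for *Cxcl1*, -0.16 to 0.28 for *Cxcl10* and -0.099 to 0.00092 for *Cxcl12* between the doses. At an FDR under 0.01, 527, 404 and 35 of all genes were called in the 3 comparisons. Of all genes, 1500 were called at 100 ng/ml, 1075 without a filter, 946 with only the groups compared and 940 (without unstimulated replicate 5) to 2932 (without replicate 2 at 100 ng/ml) with 1 culture left out. At 30 ng/ml it was 1209, and 673, 794, 740 and 754 without unstimulated replicate 3 or 4 or replicate 1 or 5 at 30 ng/ml. Between the doses the number was 89, 38 without replicate 5 at 30 ng/ml, 147 without replicate 2 at 100 ng/ml, 247 by DESeq2 and 253 by the likelihood-ratio test. The cause was not tested. The 33 members with reads that lay under the threshold, with at most 38 in a culture, were tested only in the fit without a filter.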
